A study of Homo sapiens with 12 samples.

Results

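Deubiquitinating enzymes were examined in Huh7 cells after knockdown of FAM111B. Members were chosen by gene symbol alone, as the USP, UCHL, OTUB, OTUD and JOSD genes with ATXN3, BAP1, CYLD, STAMBP, BRCC3, MYSM1, YOD1 and ZRANB1, and pseudogenes were left out. This rule took 81 of the 60666 listed genes and uses symbols, not levels. Huh7 is an established human hepatocellular carcinoma line. RNA was sequenced from 3 libraries of control Huh7 cells, labelled NC, and 3 libraries of shFAM111B cells. The shFAM111B cells are a stable line made with a lentiviral short hairpin RNA against FAM111B and puromycin selection. The paper also lists lentiviral control sequences and puromycin for infected cells. It does not state which construct the sequenced controls carried. The Hep3B libraries of the study were not analysed here. Levels are given as TPM, a transcript abundance corrected for gene length and expressed as a part of each library's total, and libraries are listed in the order of replicates 1, 2 and 3. TPM hold no depth, so no counting error can be given, and no source says whether the 3 libraries of a group came from separate cultures. The p-values therefore measure only the spread between these libraries, which may be technical. In bulk RNA a lower level can come from fewer expressing cells or from less RNA per cell, and these cannot be told apart.

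Ubiquitin is a small protein that is joined to other proteins, often as chains whose linkage decides whether the target is degraded, relocated or used as a signalling platform. Deubiquitinating enzymes cut it off again. Most are cysteine proteases, grouped by fold into the USP, UCH, OTU and Josephin families, whereas the JAMM enzymes use a zinc ion. They recycle ubiquitin at the proteasome, edit histone ubiquitin in chromatin, reset DNA repair complexes, sort endosomal receptors, oppose Parkin on mitochondria and restrain NF-kappaB signalling.

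The hairpin target given by the study is shown because the knockdown rests on it, with the bases shared with a deubiquitinase in capitals.

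shFAM111B target: cTGCCTAGTGATTCTcatt

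Among GENCODE v29 transcripts, searched on both strands, FAM111B alone held all 19 bases. No transcript of the 81 deubiquitinases shared a run longer than 14 bases with it. The single member with such a run was USP24, whose longest transcript (10549 nucleotides) held, from nucleotide 441, the reverse complement of target bases 2 to 15. A run of at least 14 bases, in either orientation, was present in 5 tested genes including FAM111B and USP24. The part of this match in the level of USP24 was not tested. FAM111B itself had 7.84, 8.29 and 7.99 TPM in the 3 control libraries and 0.96, 1.13 and 0.84 TPM in the 3 shFAM111B libraries. The groups did not overlap, as the labels imply (log2 fold change -2.20, standard error 0.113, adjusted p = 6.09e-06).

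Most deubiquitinase transcripts were lower in shFAM111B cells, and few were higher. Of the 81 members, 64 reached at least 1 TPM in at least 3 libraries and were tested among 14394 genes. A call needed a fold change of at least 2 on the log2(TPM + 1) scale and an adjusted p under 0.05 from limma with Benjamini-Hochberg adjustment over all tested genes. By that rule 34 of the 64 members (53.1%) were called lower and 0 were called higher. Over all tested genes, 23.7% were called lower and 6.77% higher. Without the fold threshold, 54 members were lower and 4 were higher at an adjusted p under 0.05, and 6 passed in neither direction. The matching shares over all tested genes were not counted, so no background stands beside these numbers. Every shFAM111B library lay below every control library for 54 members (84.4%), against 52.8% of all tested genes, and above every control library for 4 members (6.25%), against 22.5%. The median log2 fold change of the tested members was -1.03. The median tested gene was itself at -0.36, so the members' median lay 0.67 below it, with 50 members below and 14 above the median gene. USP27X, at -1.01, was the last member past the fold threshold and USP54, at -0.99, was just short of it.

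**Figure D1:**
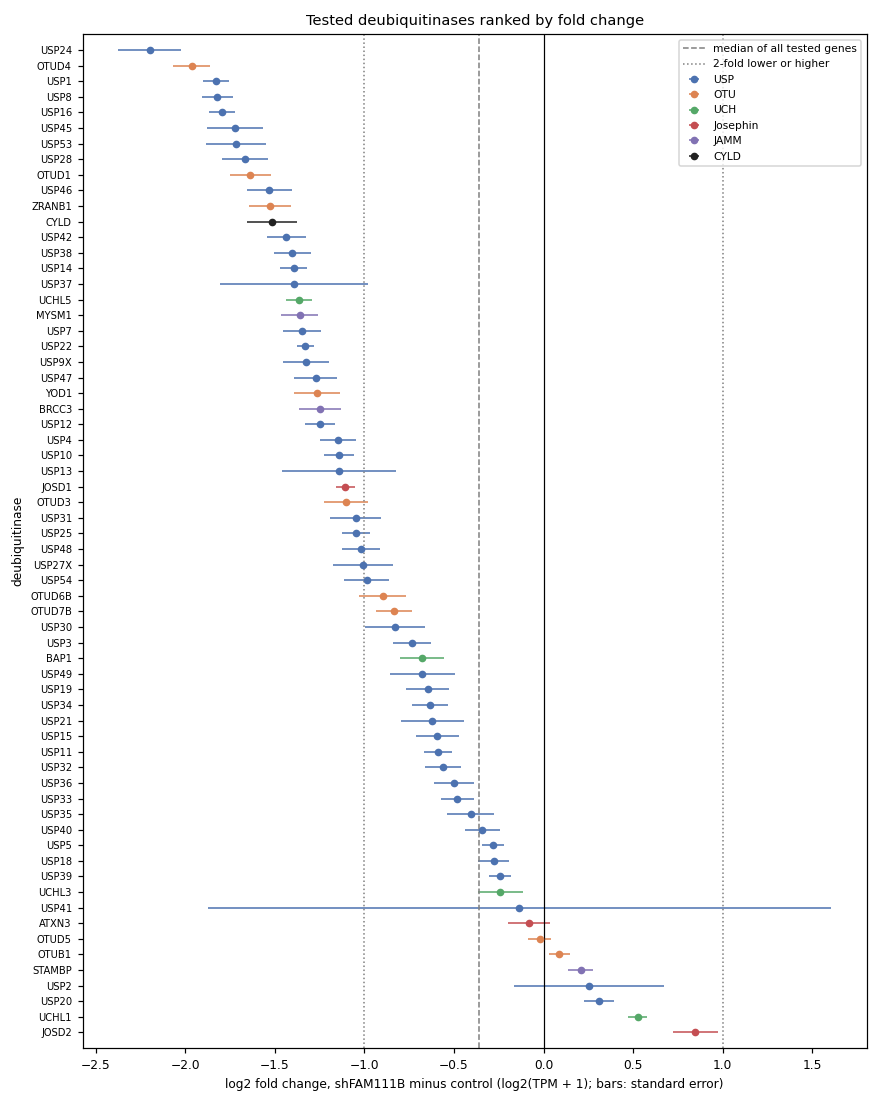
Log2 fold change of the 64 tested deubiquitinases, shFAM111B minus control, on the log2(TPM + 1) scale, with bars for the standard error and colours for the family. USP24 lies lowest at -2.20 and JOSD2 highest at 0.85, and the dashed line marks the median of all tested genes at -0.36.

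The scaling of the libraries moved the number of calls. Genes of the mitochondrial chromosome took 19.6% to 20.1% of the TPM in control libraries and 7.32% to 7.89% in shFAM111B libraries, and the part of this shift in the results was not tested. After median-of-ratios scaling the median tested gene was at 0.028, and 14 members (21.9%) were called lower and 1 higher, against 12.4% lower and 14.0% higher over all genes. The median of the members relative to the median gene was -0.69 there, close to the value with TPM as deposited. Over TPM as deposited and 5 other scalings, 47 members lay below 0 in all 6 and 5 above 0 in all 6, while 12 changed sign with the scaling. USP24, OTUD4, USP1, USP8, USP16, USP45, USP53, USP28 and OTUD1 were called lower under all 6. For these counts over the 6 scalings the shares of all tested genes were not taken either. The 12 without a stable sign were USP36, USP33, USP35, USP40, USP5, USP18, USP39, UCHL3, USP41, ATXN3, OTUD5 and OTUB1.

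**Figure D2:**
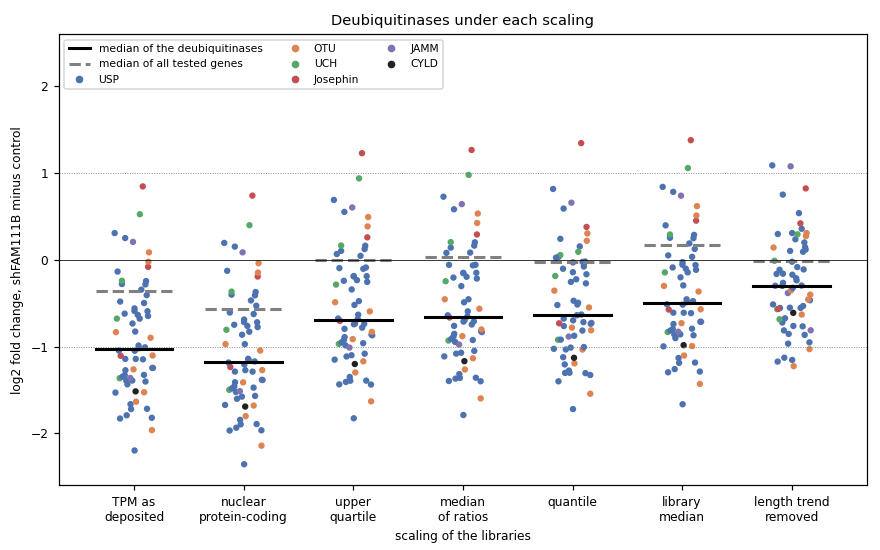
Log2 fold change of each tested deubiquitinase (points, coloured by family) under each scaling and with the length trend removed, with the members' median as a solid line and the median of all tested genes as a dashed line. The members' median lies below the median gene in every column, by 0.67 with TPM as deposited and by 0.28 with the length trend removed. The length trend is a joint loess trend on transcript length and mean level.

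Long transcripts were lower in shFAM111B cells across the whole table, and deubiquitinase transcripts are long. The longest annotated transcript had a median of 5163 nucleotides over the 64 tested members and 3212 nucleotides over all tested genes with a length. Spearman's correlation between length and log2 fold change was -0.44 across the 64 members and -0.46 across 14251 genes, points that share the same 6 libraries. None of the 4 members of up to 2000 nucleotides was called lower, against 8.32% of all genes in that class. Between 2000 and 4000 nucleotides 8 of 19 members (42.1%) were called lower, against 18.7% of genes. From 4000 to 8000 nucleotides it was 19 of 30 (63.3%) against 37.9%, and above 8000 nucleotides 7 of 11 (63.6%) against 44.7%. With a joint loess trend on length and mean level taken out, 5 members (7.81%) were called lower and 2 higher, against 9.14% and 9.49% of all genes. The 5 were USP24, OTUD4, USP1, USP16 and OTUD1, and the 2 were STAMBP and USP20. The share of members called lower with TPM as deposited was thus above the background, also within each length class over 2000 nucleotides. With the joint trend on length and level removed it was near the background. The part of length alone was not tested.

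Enzymes with roles in DNA repair and chromatin are given first. USP1, which strips monoubiquitin from FANCD2 and PCNA, had 44.5, 44.9 and 39.8 TPM in the 3 control libraries and 11.7, 11.3 and 11.1 TPM in the 3 shFAM111B libraries. All 3 knockdown values were far below the controls and close to each other, and USP1 fell by 1.83 on the log2 scale (standard error 0.0712, adjusted p = 3e-06). USP16, a histone H2A deubiquitinase active in mitosis, had 30.3, 28.1 and 29.2 TPM in controls and 7.42, 8.10 and 7.63 TPM in shFAM111B cells, and it fell by 1.79 (standard error 0.0721, adjusted p = 3.15e-06). USP22, the deubiquitinase of the SAGA coactivator, was among the 3 most abundant members, with 96.4, 96.9 and 92.5 TPM against 36.9, 37.6 and 37.3 TPM. It fell by 1.33 (standard error 0.047, adjusted p = 2.63e-06). MYSM1, a JAMM enzyme of histone H2A, fell from a mean of 10.3 ± 0.811 to 3.38 ± 0.208 TPM (SD, n = 3 each), and BRCC3, the K63-specific subunit of the BRCA1-A and BRISC complexes, fell from 16.7 ± 1.47 to 6.47 ± 0.893 TPM. USP22 and MYSM1 were called lower under 3 of the 6 scalings and BRCC3 under 2, each with an adjusted p under 0.05 in all 6. BAP1, the nuclear tumour suppressor of the UCH family, moved less. It had 20.5, 23.8 and 26.0 TPM in controls and 15.5, 12.2 and 15.1 TPM in shFAM111B cells (log2 fold change -0.68, standard error 0.122, adjusted p = 0.00186), and after median-of-ratios scaling it no longer passed (-0.25, adjusted p = 0.105).

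USP28, USP45 and OTUD4 also have roles in the response to damaged DNA, and all were called lower under every scaling. USP28, which stabilises MYC and acts with 53BP1, had 6.91, 7.63 and 8.05 TPM in controls and 1.41, 1.67 and 2.01 TPM in shFAM111B cells. USP45, which acts on the ERCC1 repair nuclease, had 8.74, 9.17 and 9.04 TPM against 2.74, 1.55 and 1.91 TPM. OTUD4 had 12.0, 10.8 and 10.3 TPM against 2.17, 2.08 and 1.97 TPM, the steepest fall outside the USP family (log2 fold change -1.96, standard error 0.104, adjusted p = 6.77e-06). In these genes the lowest control value was more than 2 times the highest knockdown value. USP24, the member with the largest fall, had 24.4, 28.6 and 24.3 TPM in controls and 4.46, 3.76 and 6.55 TPM in shFAM111B cells (log2 fold change -2.20, standard error 0.175, adjusted p = 3.27e-05).

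Both cysteine deubiquitinases that dock on the proteasome were lower. USP14, which trims chains on arriving substrates and was the second most abundant member, had 105, 103 and 94.9 TPM in the 3 control libraries and 38.5, 40.5 and 34.5 TPM in the 3 shFAM111B libraries. It fell by 1.39 (standard error 0.0755, adjusted p = 7.12e-06). UCHL5, which binds the ubiquitin receptor ADRM1, had 38.1, 37.1 and 35.7 TPM against 14.2, 14.4 and 12.6 TPM, and it fell by 1.37 (standard error 0.0737, adjusted p = 7.05e-06). USP14 was called lower under 3 of the 6 scalings and UCHL5 under 2, each with an adjusted p under 0.05 in all 6. PSMD14, the JAMM enzyme of the proteasome lid, is outside the symbol rule. It fell by 0.59 (246.6 ± 1.63 against 163.7 ± 3.87 TPM, SD, n = 3 each, adjusted p = 1.6e-05). After median-of-ratios scaling PSMD14 was at -0.14. ADRM1 stood at 281.6 ± 21.1 TPM in controls and 314.7 ± 9.78 TPM in shFAM111B cells, a small rise that passed the test (adjusted p = 0.0482) and turned negative under 1 of the 6 scalings.

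USP7 and USP10, named here for their action on p53, were lower. USP7, which deubiquitinates both p53 and its ligase MDM2, had 44.4, 39.3 and 35.6 TPM in controls and 16.8, 14.0 and 14.1 TPM in shFAM111B cells (log2 fold change -1.35, standard error 0.108, adjusted p = 3.29e-05). USP10, which deubiquitinates p53 in the cytoplasm, had 83.9, 71.4 and 69.3 TPM against 33.9, 34.6 and 31.3 TPM (log2 fold change -1.14, standard error 0.0854, adjusted p = 2.49e-05). The groups did not overlap in either gene. Both were called lower under 2 of the 6 scalings, with an adjusted p under 0.05 in all 6. After median-of-ratios scaling USP7 was at -0.91 and USP10 at -0.70.

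Enzymes of mitochondria and endosomes did not move alike. USP8, which trims Parkin and endosomal receptors, had 26.7, 27.0 and 30.0 TPM in the 3 control libraries and 7.32, 7.60 and 6.59 TPM in the 3 shFAM111B libraries, and it fell by 1.82 (standard error 0.0864, adjusted p = 4.65e-06). Its 3′ end overlaps USP50 on the other strand, which stayed at or below 1.04 TPM in every library. USP30, the outer-membrane enzyme that opposes Parkin, had 5.51, 3.72 and 4.02 TPM against 1.73, 1.94 and 2.44 TPM (log2 fold change -0.83, standard error 0.168, adjusted p = 0.00336). USP15, another antagonist of Parkin, had 58.2, 50.4 and 44.4 TPM against 37.0, 33.9 and 29.4 TPM (log2 fold change -0.59, standard error 0.12, adjusted p = 0.00338). After median-of-ratios scaling USP30 passed at -0.49 (adjusted p = 0.0317) and USP15 did not (-0.15, adjusted p = 0.317). USP30 no longer passed with the library median subtracted (-0.29, adjusted p = 0.142) or with the length trend removed (-0.32, adjusted p = 0.13). STAMBP, the JAMM enzyme that acts with the STAM proteins on endosomes, was higher, with 22.4, 21.7 and 19.8 TPM in controls and 25.0, 25.0 and 24.2 TPM in shFAM111B cells. Its rise was 0.21 with TPM as deposited (standard error 0.0685, adjusted p = 0.029) and 0.64 after median-of-ratios scaling (adjusted p = 0.000177), and it lay above 0 under all 6 scalings, though it did not pass when rescaled over nuclear protein-coding genes (0.086, adjusted p = 0.403). Leaving out control replicate 2 or 3 or shFAM111B replicate 1 or 2 ended the call with TPM as deposited (adjusted p = 0.0602, 0.0797, 0.0814 and 0.0668).

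Several enzymes that act on NF-kappaB signalling are given next, from lists that are not complete. CYLD, which removes K63 and linear chains from NF-kappaB adaptors, had 6.61, 7.90 and 6.71 TPM in controls and 1.67, 1.55 and 2.27 TPM in shFAM111B cells (log2 fold change -1.52, standard error 0.141, adjusted p = 6.63e-05). OTUD1 had 10.4, 10.6 and 8.59 TPM against 2.57, 2.48 and 2.41 TPM, a fall of 1.64 (standard error 0.114, adjusted p = 1.83e-05). OTUD7B, also called Cezanne, which cuts K11 chains, fell by 0.83 (7.22 ± 0.243 against 3.62 ± 0.316 TPM, SD, n = 3 each, adjusted p = 0.00026), short of the fold threshold. ZRANB1, known as TRABID and linked to Wnt signalling, had 12.2, 13.2 and 12.4 TPM against 4.33, 3.78 and 3.11 TPM. TNFAIP3, or A20, an OTU enzyme that ends NF-kappaB signalling and is outside the symbol rule, fell by 2.97 (33.2 ± 1.57 against 3.38 ± 0.267 TPM, SD, n = 3 each, adjusted p = 1.89e-06). OTULIN, the enzyme of linear chains, did not pass (7.38 ± 1.63 against 5.20 ± 0.843 TPM, SD, n = 3 each, log2 fold change -0.43, adjusted p = 0.0593).

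Further falls were found in USP46, USP53, USP9X and YOD1. USP46, which works with the WD-repeat cofactors WDR48 and WDR20, had 23.1, 20.8 and 20.7 TPM in controls and 7.42, 7.56 and 5.53 TPM in shFAM111B cells. USP53, a junction-associated family member, had 10.3, 8.70 and 7.70 TPM against 1.46, 2.42 and 2.18 TPM. USP9X, an X-linked enzyme that stabilises MCL1 and other substrates, had 14.9, 13.7 and 12.9 TPM against 4.45, 4.40 and 5.99 TPM. YOD1, which acts with VCP in the degradation of misfolded proteins from the endoplasmic reticulum, had 10.8, 9.54 and 8.31 TPM against 3.50, 3.71 and 2.96 TPM. Groups did not overlap in any of these 4 genes, and their log2 fold changes were -1.53, -1.72, -1.33 and -1.26 (adjusted p = 3.54e-05, 8.38e-05, 8.22e-05 and 0.000107). USP53 was called lower under all 6 scalings, USP46 under 5, and USP9X and YOD1 under 2 each. With the length trend removed USP9X did not pass (-0.30, adjusted p = 0.0705).

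**Figure D3:**
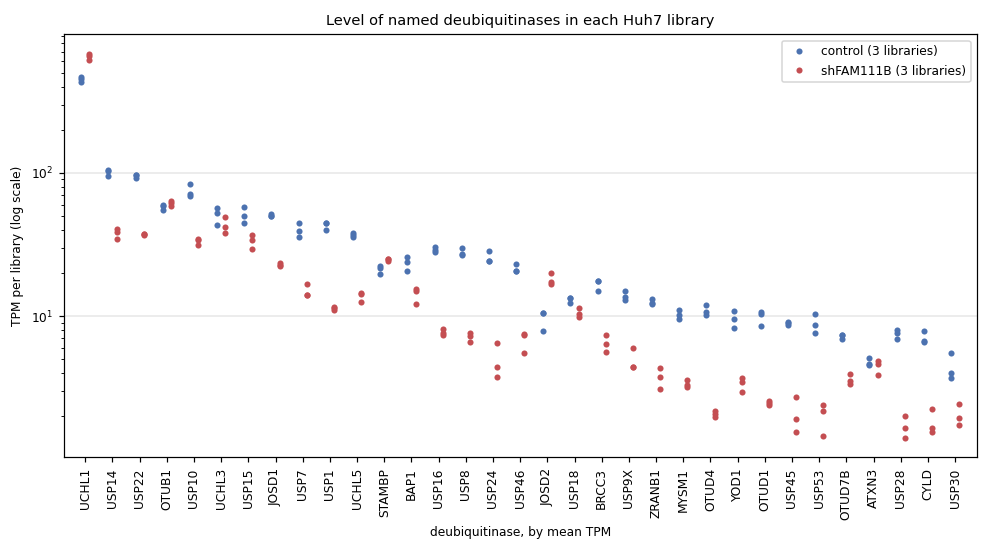
TPM in each of the 6 Huh7 libraries on a log axis for named deubiquitinases, ordered by mean level, with control libraries in blue and shFAM111B libraries in red. UCHL1 stands highest and above its controls in all 3 shFAM111B libraries, whereas USP14 and USP22 lie below theirs.

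UCHL1, the most abundant deubiquitinase, rose. This ubiquitin hydrolase, abundant in neurons and in some tumours, had 452.4, 432.6 and 464.7 TPM in the 3 control libraries and 652.8, 614.1 and 678.7 TPM in the 3 shFAM111B libraries. The groups were well apart (log2 fold change 0.53, standard error 0.0523, adjusted p = 9.27e-05), and the value lay above 0 under all 6 scalings, from 0.093 after quantile normalization, where it did not pass (adjusted p = 0.135), to 1.06 with the library median subtracted. Its share of the summed TPM of all members went from 22.3% to 24.6% in control libraries to 42.5% to 45.5% in shFAM111B libraries. UCHL3, its close relative, had 43.6, 52.6 and 57.0 TPM against 48.9, 42.1 and 38.1 TPM, with overlapping groups (log2 fold change -0.24, standard error 0.125, adjusted p = 0.122). Without control replicate 1 it passed at -0.35 (adjusted p = 0.038). UCHL3 also passed as lower when rescaled over nuclear protein-coding genes (-0.37, adjusted p = 0.0278) and with the length trend removed (-0.69, adjusted p = 0.00226). It lay below 0 under 2 of the 6 scalings.

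OTUB1 and ATXN3 did not pass the test with TPM as deposited. OTUB1, which cuts K48 chains, had 54.7, 59.9 and 58.5 TPM in controls and 61.8, 58.6 and 63.5 TPM in shFAM111B cells (log2 fold change 0.09, standard error 0.0587, adjusted p = 0.222). OTUB1 passed as higher under 4 of the 6 scalings, among them median-of-ratios scaling (0.53, adjusted p = 0.000159). ATXN3, the polyglutamine protein of Machado-Joseph disease, had 4.61, 5.15 and 4.57 TPM against 4.85, 3.89 and 4.68 TPM (log2 fold change -0.08, standard error 0.117, adjusted p = 0.556). ATXN3 passed as higher under 2 of the 6 scalings, quantile normalization (adjusted p = 0.0253) and library median subtracted (adjusted p = 0.0113). USP18, which removes ISG15 rather than ubiquitin, had 12.3, 13.4 and 13.5 TPM against 11.5, 10.4 and 9.85 TPM, and its value of -0.28 (standard error 0.0876, adjusted p = 0.0237) turned to 0.14 after median-of-ratios scaling. Without control replicate 2 or 3 or shFAM111B replicate 2 or 3 it no longer passed (adjusted p = 0.0737, 0.0688, 0.0572 and 0.0657). JOSD2 and USP20 were picked out after their values were seen. JOSD2, a small Josephin enzyme, had 7.95, 10.5 and 10.5 TPM in controls and 17.4, 16.8 and 20.0 TPM in shFAM111B cells. Its rise of 0.85 (standard error 0.127, adjusted p = 0.000738) reached 1.27 after median-of-ratios scaling, the single call of a higher member there. The longest JOSD2 transcript has 996 nucleotides, and with the length trend removed the rise was 0.42 (adjusted p = 0.0239), short of a call. USP20, which acts on the beta-adrenergic receptor and on HIF1A, had 10.3, 11.8 and 10.3 TPM against 13.3, 13.6 and 13.8 TPM (log2 fold change 0.31, standard error 0.0833, adjusted p = 0.0126), and it did not pass when rescaled over nuclear protein-coding genes (0.20, adjusted p = 0.105).

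With TPM as deposited, summed levels were lower in shFAM111B cells for most families and higher for the UCH family. The 58 USP genes together had 1081, 1098 and 1012 TPM in the 3 control libraries and 531.0, 548.4 and 525.8 TPM in the 3 shFAM111B libraries, and 24 of the 44 tested were called lower, against 23.7% of all tested genes, the share beside which the counts of the other families also stand. The UCH family had 554.7, 546.0 and 583.3 TPM against 731.4, 682.9 and 744.5 TPM, of which UCHL1 was the greater part. OTU enzymes summed to 171.9 ± 0.658 TPM in controls and 134.8 ± 2.41 TPM in shFAM111B cells (SD, n = 3 each), and 5 of 9 tested were called lower. In the Josephin family the sums were 64.9 ± 1.82 and 45.5 ± 1.74 TPM with 1 of 3 called lower, namely JOSD1, and in the JAMM family 48.3 ± 2.87 and 34.6 ± 1.25 TPM with 2 of 3. All members together gave 1917 ± 28.1 TPM in controls and 1471 ± 23.4 TPM in shFAM111B cells, and without UCHL1 the means were 1467 and 822.7 TPM. Each of these sums separated the groups, and the exact permutation test of 3 libraries against 3 gave its smallest possible two-sided p of 0.1 each time. The ratio of the sums over all members, -0.38 on the log2 scale, turned to 0.073 after median-of-ratios scaling. That scaling divides control libraries by 1.171 to 1.181 and shFAM111B libraries by 0.8501 to 0.8695. It thus raises every shFAM111B sum beside its controls. The sums of single families were not compared under it, and their directions are given for TPM as deposited only.

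**Figure D4:**
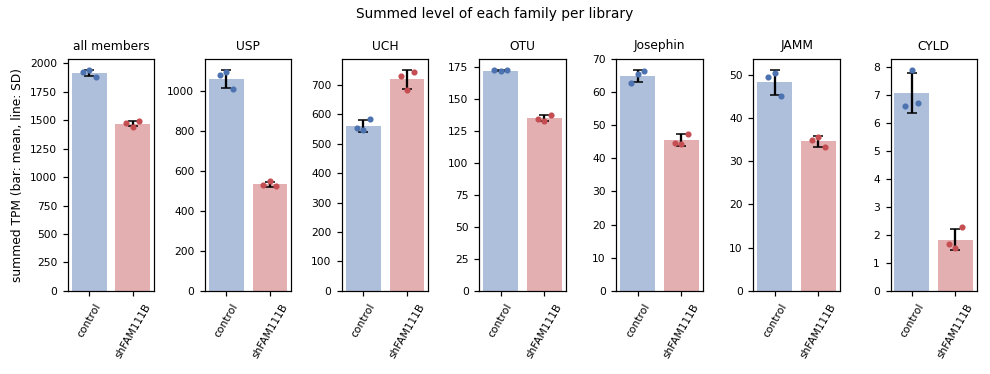
Summed TPM as deposited, over all members and over each family, in control and shFAM111B libraries. Bars show the mean of 3 libraries, lines the SD and points the libraries. The UCH sum is higher in shFAM111B cells and the other sums are lower, from 1917 to 1471 TPM over all members.

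Ratios of related genes within a library are not changed by a single factor per library, though quantile normalization changes them, and 8 pairs, chosen after their values were seen, are given as a description. JOSD2 stood at 0.158, 0.212 and 0.205 of JOSD1 in the 3 control libraries and at 0.782, 0.711 and 0.88 in the 3 shFAM111B libraries. These 2 transcripts differ in length (996 and 3648 nucleotides). UCHL1 exceeded UCHL3 by 10.4, 8.22 and 8.15 times in controls and by 13.3, 14.6 and 17.8 times in shFAM111B cells. USP20 stood at 0.599, 0.716 and 0.678 of USP33 in controls and at 1.24, 1.09 and 1.26 in shFAM111B cells, and these transcripts are of like length (4458 and 4502 nucleotides). The ratios of USP25 to USP28, USP15 to USP4 and USP12 to USP46 were also apart between the groups, with log2 differences of 0.99, 0.69 and 0.32. Groups overlapped in the ratios of USP5 to USP13 and of USP22 to USP27X.

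A few members with uneven libraries were also picked out after their values were seen. USP37, which acts at replication forks, had 5.28, 4.44 and 6.80 TPM in controls and 3.92, 0.74 and 0.72 TPM in shFAM111B cells, with replicate 1 close to the controls. It was called lower with TPM as deposited (log2 fold change -1.39, standard error 0.414, adjusted p = 0.0189) and no longer passed after median-of-ratios scaling (adjusted p = 0.0599) or without control replicate 3 or shFAM111B replicate 2 or 3 (adjusted p = 0.0649, 0.059 and 0.0523). USP13 had 7.19, 13.7 and 7.18 TPM against 2.35, 5.52 and 3.20 TPM, highest in replicate 2 of both groups. It was called lower with TPM as deposited (log2 fold change -1.14, standard error 0.317, adjusted p = 0.0142), kept an adjusted p under 0.05 with each library left out, though its fold was under 2 without control replicate 2 (-0.86) or shFAM111B replicate 1 (-0.93), and no longer passed after median-of-ratios scaling (-0.76, adjusted p = 0.0674). USP41, nearly identical in sequence to USP18, had 0.26, 59.3 and 0 TPM against 2.09, 17.6 and 0 TPM, again with replicate 2 highest, and gives no usable comparison. USP2 had 2.65, 2.38 and 2.94 TPM against 2.32, 1.76 and 7.95 TPM, and its value of 0.25 became -0.27 without shFAM111B replicate 3. Reads of close copies (USP18 with USP41, USP22 with USP27X and USP51, USP6 with USP32, and the USP17L genes) could be divided between them by the counting.

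The 17 members that were not tested stayed at or below 1.04 TPM. Of these, 9 were listed at 0 in every library, namely USP26, USP51 and the 7 USP17L genes, and the other 8 were OTUB2, OTUD6A, OTUD7A, USP6, USP29, USP43, USP44 and USP50.

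Promoter windows of 4 members are shown to set 2 that fell beside 2 that rose, from RefSeq on GRCh38.p14, each from 250 bases before to 50 bases after the start of the gene on its own strand. Capitals mark the Sp1 box GGGCGG, the CCAAT box, the ETS motif CCGGAAG, the TATAAA box, the NRF1 motif GCGCATGCG and the E-box CACGTG, each searched on both strands, and overlapping matches were all counted.

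USP1, chr1:62436145-62436444, plus strand: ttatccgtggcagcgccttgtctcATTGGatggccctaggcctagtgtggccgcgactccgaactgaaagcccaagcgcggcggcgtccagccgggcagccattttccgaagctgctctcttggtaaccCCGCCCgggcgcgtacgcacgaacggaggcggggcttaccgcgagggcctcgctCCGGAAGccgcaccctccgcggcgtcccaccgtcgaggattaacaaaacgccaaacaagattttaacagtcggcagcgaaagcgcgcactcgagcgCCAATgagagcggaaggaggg
USP16, chr21:29024418-29024717, plus strand: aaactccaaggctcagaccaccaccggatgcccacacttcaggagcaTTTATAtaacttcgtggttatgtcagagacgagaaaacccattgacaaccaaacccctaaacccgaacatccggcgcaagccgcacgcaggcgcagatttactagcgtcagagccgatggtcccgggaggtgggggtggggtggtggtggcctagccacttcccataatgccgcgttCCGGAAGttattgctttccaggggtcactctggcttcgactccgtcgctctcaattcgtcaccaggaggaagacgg
UCHL1, chr4:41256678-41256977, plus strand: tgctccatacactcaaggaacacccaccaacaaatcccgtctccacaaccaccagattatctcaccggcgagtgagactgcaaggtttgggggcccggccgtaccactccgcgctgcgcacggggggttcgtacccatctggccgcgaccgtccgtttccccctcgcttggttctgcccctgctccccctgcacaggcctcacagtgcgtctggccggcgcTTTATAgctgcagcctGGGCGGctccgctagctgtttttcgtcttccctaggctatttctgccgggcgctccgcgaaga
JOSD2, chr19:50511142-50511441, minus strand: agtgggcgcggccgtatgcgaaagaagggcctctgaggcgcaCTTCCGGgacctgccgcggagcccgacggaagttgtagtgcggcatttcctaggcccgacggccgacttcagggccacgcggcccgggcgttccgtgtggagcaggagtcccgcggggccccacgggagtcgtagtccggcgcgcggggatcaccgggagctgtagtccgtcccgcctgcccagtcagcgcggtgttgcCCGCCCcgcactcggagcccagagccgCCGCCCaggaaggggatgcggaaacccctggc

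The windows of USP1, USP16 and JOSD2 hold the ETS letters and that of UCHL1 does not, while TATAAA is in those of USP16 and UCHL1. Of the 64 tested members, 51 had a window in the table. The 27305 windows set beside them cover all symbols in that source, whether or not the gene was tested here. The shares below are therefore not a comparison with other expressed genes. GGGCGG was in 42 of the 51 (82.4%), against 44.6% of 27305 windows, and CCGGAAG was in 13 (25.5%), against 10.7%. CCAAT was in 15 (29.4%) against 35.7%, TATAAA in 3 (5.88%) against 12.0%, CACGTG in 4 (7.84%) against 7.43% and GCGCATGCG in 1 (1.96%) against 2.1%. Among members called lower, 22 of 27 held GGGCGG and 4 of 27 held CCGGAAG, and among the other tested members 20 of 24 and 9 of 24 did. A match is a description of letters in the window and not evidence of binding.

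Partner proteins of these enzymes were examined as well. Of 26 listed subunits and cofactors, all tested, 11 were called lower and 0 higher, against 23.7% and 6.77% of all tested genes, with a median log2 fold change of -0.85 beside -0.36 over all tested genes. After median-of-ratios scaling 8 were called lower and 1 higher, against 12.4% and 14.0%. WDR48, which activates USP1, USP12 and USP46, fell by 1.73 (23.7 ± 1.86 against 6.47 ± 0.85 TPM, SD, n = 3 each, adjusted p = 1.25e-05). In the SAGA module of USP22, ATXN7L3 fell by 1.41 (adjusted p = 6.39e-06) and ATXN7 by 1.41 (adjusted p = 0.000498), whereas ENY2 rose by 0.71 (128.8 ± 2.58 against 211.3 ± 2.13 TPM, SD, n = 3 each, adjusted p = 8.16e-06). ASXL1, the partner of BAP1 on histone H2A, fell by 1.73 (77.8 ± 4.16 against 22.8 ± 1.39 TPM, SD, n = 3 each, adjusted p = 3.14e-06), beside -0.68 for BAP1. Among the BRCC3 partners, the scaffolds ABRAXAS1 and ABRAXAS2 fell by 1.41 and 1.24 (adjusted p = 0.000396 and 6.95e-05), and BABAM1 and BABAM2 did not pass (0.09 and -0.15, adjusted p = 0.214 and 0.262). STAM and STAM2, endosomal adaptors of USP8 and STAMBP, fell by 1.89 and 1.62 (adjusted p = 3.09e-05 and 1.83e-05).

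Deubiquitinases outside the symbol rule and the sources of ubiquitin were counted in the same way. Of 18 further deubiquitinases and related JAMM proteins, 17 were tested, 3 were called lower (TNFAIP3, VCPIP1 and MINDY2) and 0 higher, with a median of -0.59, and the share called lower was no greater than the 23.7% of all tested genes. Among 12 genes for ubiquitin, its relatives and their loading enzymes, 4 were called higher and 2 lower, against 6.77% and 23.7% of all tested genes, and the median was 0.28. RPS27A, which encodes ubiquitin fused to a ribosomal protein, rose by 1.09 (adjusted p = 1.24e-05), and NEDD8 rose by 1.23 (291.3 ± 4.58 against 683.1 ± 43.7 TPM, SD, n = 3 each, adjusted p = 4.03e-06). ISG15 rose by 1.07 (adjusted p = 5.86e-05). UBB, which encodes a chain of ubiquitin repeats, was higher by 0.41 (adjusted p = 9.01e-05) and changed sign under 1 of the 6 scalings. UBA6, an activating enzyme of ubiquitin, fell by 1.76 (adjusted p = 0.000261) and UFM1 by 1.07 (adjusted p = 2.62e-05).

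The libraries carried liver markers throughout. The 7 hepatocyte and hepatocellular carcinoma markers summed to 22100 to 22300 TPM in control libraries and 37700 to 42600 TPM in shFAM111B libraries. Of these, 3 were called higher (AFP, APOA1 and TTR) and 1 lower (APOB), against 6.77% and 23.7% of all tested genes. AFP alone had a mean of 7274 TPM in controls and 23060 TPM in shFAM111B cells. Short of the fold threshold, ALB and SERPINA1 were lower (-0.63 and -0.29, adjusted p = 2.31e-05 and 0.000361). GPC3 was higher (0.50, adjusted p = 1.85e-05). The 6 markers of fibroblasts, endothelial and immune cells summed to 24.3 to 27.5 TPM and 33.8 to 38.2 TPM, and COL1A1, VWF and PTPRC did not reach the filter. COL1A2 and CD68 were higher (0.53 and 0.45, adjusted p = 0.0288 and 0.0016), and PECAM1 did not pass (adjusted p = 0.109). The part of these shifts in the deubiquitinase results was not tested. The shFAM111B arm is a single line with a single hairpin, and the construct of the control line is not given. Loss of FAM111B and other effects of the hairpin or of selection therefore cannot be told apart.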

How the data were processed

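RNA-seq libraries of Huh7 control and shFAM111B cells (3 each) were grouped by their labels. The authors deposited TPM per library and gene, their group means, and their own comparison in columns for the fold change (a ratio), log2 fold change, p-value and q-value, and none of the comparison columns was used. The submitters' processing notes name RSEM, DESeq2 and hg38 without versions or roles. The paper gives a TruSeq kit and the labels a stranded poly(A) kit. No depth is held in TPM, so no count test was run and the limma route of the design was taken.

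Genes that reached 1 TPM in 3 or more libraries were compared on log2(TPM + 1) with limma 3.58.1 (lmFit, eBayes with trend, no covariate, R 4.3.3) and Benjamini-Hochberg adjustment over all tested genes. Single summed values were compared by an exact permutation test, two-sided. The code was tested on simulated data. Positions and transcript lengths come from GENCODE v29 (96.3% of listed identifiers matched), and the build of the deposited values was not checked by coordinates. Python 3.11.15 with pandas 2.3.3, scipy 1.17.1 and matplotlib 3.10.9 made the tables and figures.

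The members and lists (families, further deubiquitinases, partners, ubiquitin precursors, SUMO and NEDD8 proteases, cell markers) were chosen with earlier results of these data known. Named genes were FAM111B, the 10 called members with the largest falls and rises, the 3 with the highest TPM and a fixed set of known enzymes, and others are marked in the text. Alternatives were filters, pseudocount, replicate block, left-out libraries, 5 scalings, removal of a loess trend and other thresholds. The loess trend, called the length trend, was joint over length and mean log2(TPM + 1) level (span 0.75). Counts over the ubiquitin precursor list include 2 genes whose own values are not reported here.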

Additional observations from a re-analysis of the deposited data

How the results depend on the processing

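The count of members called lower, 34 with TPM as deposited, was 14 after median-of-ratios scaling, 15 after upper-quartile scaling, 16 after quantile normalization, 9 with the library median subtracted and 5 with the length trend removed, and members called higher, 0 as deposited, numbered 1, 1, 1, 2 and 2 in that order and 1 at a fold of 1.5. Under the remaining filters, pseudocount and scaling it was within 1.5 times. All tested genes called lower, 3406, numbered 1792, 1905, 1846, 1305 and 1302 under those 5 settings and 5762 at a fold of 1.5, and those called higher, 974, numbered 2016, 1884, 1673 and 2574 under the 4 scalings, 506 when rescaled over nuclear protein-coding genes, 634 with at least 1 TPM in every library and 2008 at a fold of 1.5. The members' median of -1.03 was -0.66, -0.69, -0.64, -0.50 and -0.30 under the same 5 settings, -1.18 over nuclear protein-coding genes, -0.87 without a filter and -1.22 with a pseudocount of 0.1. The log2 ratio of the members' summed TPM, -0.38, was 0.073 after median-of-ratios and 0.033 after upper-quartile scaling and -0.51 over nuclear protein-coding genes. The cause of these moves was not tested beyond the construction of each setting. Leaving out each library in turn gave 30 to 33 members called lower and 0 higher, 3360 to 3545 genes lower and 904 to 1073 higher, a members' median from -1.09 to -0.97 and a summed ratio from -0.39 to -0.37.

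Some named genes changed sign. ATXN3 (-0.08) stood at 0.29, 0.26, 0.38 and 0.45 after median-of-ratios, upper-quartile, quantile and library-median scaling and 0.82 with the length trend removed. UCHL3 (-0.24) stood at 0.21, 0.17, 0.055 and 0.29 under those 4 scalings, USP18 (-0.28) at 0.14, 0.10, 0.24 and 0.26, and OTUD5 (-0.02) at 0.43, 0.39, 0.22 and 0.51, with 0.27 after removal of the length trend. USP41 (-0.13) stood at 0.081, 0.067, 0.025 and 0.40 under the scalings and 0.29 with a pseudocount of 0.1. OTUB1 (0.09) stood at -0.038 over nuclear protein-coding genes, where it did not pass (adjusted p = 0.591). Under the 4 scalings above OTUB1 stood at 0.53, 0.49, 0.31 and 0.62, and it passed in each. With the length trend removed OTUD7B and USP15 stood at 0.14 and 0.15. Leaving out single libraries moved USP41 from -1.27 to 1.78, USP2 from -0.27 to 0.58 and OTUD5 from -0.075 to 0.021.

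Replicate numbers did not pair the libraries. Correlations of same-numbered deviations from the group means were 0.054, 0.035 and 0.091, and shFAM111B replicate 2 correlated best with control replicate 1 (0.044). With the replicate number as a block, 34 members were called lower and 0 higher (3402 and 983 of all genes), and USP18 no longer passed (adjusted p = 0.0587). TPM hold no depth, so counting error limits the members near 1 TPM to an unknown degree.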

Other observations

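Proteases of the ubiquitin relatives SUMO and NEDD8 were counted in the same way. Of 9 listed genes, all tested, 6 were called lower and 0 higher with TPM as deposited, and the median log2 fold change was -1.26. Over all tested genes 23.7% were called lower and 6.77% higher. After median-of-ratios scaling 3 of the 9 were called lower and 1 higher, against 12.4% and 14.0% of all tested genes. SENP2 fell by 1.94 (31.7 ± 2.91 TPM in controls and 7.53 ± 0.975 TPM in shFAM111B cells, SD, n = 3 each, adjusted p = 8.58e-06), and SENP1, SENP5, SENP6, SENP7 and DESI2 fell by 1.55, 1.17, 1.52, 1.26 and 1.40 (adjusted p = 1.86e-05, 2.18e-05, 1.05e-05, 0.000893 and 1.9e-05 from limma). SENP3, the nucleolar SUMO protease, rose by 0.89 (48.7 ± 3.96 against 91.5 ± 10.7 TPM, SD, n = 3 each, adjusted p = 0.000165), and it lay above 0 under all 6 scalings. SENP8, which acts on NEDD8, and DESI1 did not pass (0.03 and -0.07, adjusted p = 0.892 and 0.606).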
